A study of Mus musculus with 16 samples.

Results

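The genes described here are those that mark the classes of interneuron known from the striatum: Sst, Npy, Pvalb, Chat, Calb2, Nos1 and Th. A probe set, the group of short probes that together read 1 transcript region on the array, was taken as a member when the platform's annotation gave it only 1 of these 7 gene symbols. The rule found 9 probe sets for 6 of the 7 genes, out of 28898 probe sets that name a single gene and 17097 genes so named. Nos1 had 4 probe sets, and Sst, Npy, Pvalb, Calb2 and Th had 1 each. Chat, which codes for the enzyme that makes acetylcholine, was not analysed here because no probe set was paired with it alone.

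Interneurons are local cells that shape the firing of the projection neurons carrying the output of the striatum. They are usually told apart by what they make: somatostatin, neuropeptide Y and nitric oxide synthase in one class, parvalbumin in fast-spiking cells, calretinin (Calb2) or tyrosine hydroxylase (Th) in others, and acetylcholine in large cholinergic cells. The same genes also mark interneurons of the cortex, Calb2 is also used by neurons of the thalamus and midbrain, and Th is the defining enzyme of midbrain dopamine neurons.

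The groups, of 4 male mice each, were DBA/2J mice given risperidone, DBA/2J control mice, A/J mice given risperidone and A/J control mice. All 16 mice were 7 to 8 weeks old, of the inbred stocks DBA/2JRccHsd and A/JOlaHsd, with no engineered allele. Risperidone, a drug against psychosis and a blocker of the dopamine D2 receptor, was injected intraperitoneally on 3 consecutive days at 1 mg/kg a day. The remaining mice carry the label untreated, although the common protocol text has them injected with saline, and are called control mice. Total RNA of tissue labelled striatum was hybridised to Affymetrix mouse arrays, 1 array per mouse, and every level below is a log2 value after the authors' RMA normalization, so that 1 unit is a doubling.

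Several properties of the arrays bear on all that follows. Array medians lay between 5.66 and 5.71. Drd2, the dopamine D2 receptor that defines one class of striatal projection neuron, was between 3.62 and 4.90, while the cortical glutamate transporter Slc17a7 was between 9.52 and 10.20 and the cortical transcription factor Tbr1 between 8.06 and 8.79. Levels of different probes cannot be ranked against each other, but these cortical genes lay above the upper quartile of their arrays (6.95 to 7.05) although striatal neurons are not known for them, so the interneuron genes cannot be assigned to striatal cells alone. The group means of the 10 measured striatal projection neuron markers ran from 3.72 (Drd2, DBA/2J controls) to 9.26 (Bcl11b, DBA/2J controls). Those of the 8 measured cortex markers ran from 5.42 (Emx1, A/J controls) to 9.84 (Slc17a7, DBA/2J risperidone mice). In bulk tissue, fewer cells of a type and less RNA per cell cannot be told apart. Probe sets that separate the strains placed 3 of the 4 A/J risperidone arrays (replicates 1, 2 and 4) between the strains, with a DBA/2J share of 27.8, 36.2 and 39.0%, against 0.444% in replicate 3 and -2.30 to 0.944% in A/J controls. The share was 96.1 to 103% in DBA/2J controls and 87.7 to 102% in DBA/2J risperidone mice, lowest in replicate 1 of the latter. DBA/2J control replicate 4 stood apart from all other arrays, with a highest correlation to any of them of 0.979, and the mean level of the choroid plexus markers was 4.70 to 6.05 in DBA/2J risperidone mice, 4.53 to 4.79 in DBA/2J controls, 4.83 to 5.81 in A/J risperidone mice and 4.72 to 5.80 in A/J controls. It was highest in DBA/2J risperidone replicate 1, and the other 3 arrays of that group reached 4.95.

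Among the 9 probe sets, the data show 1 difference that passed the test. Calb2 had a 1.92-fold lower level in control mice of the DBA/2J strain than in those of A/J. In DBA/2J mice given risperidone its mean was 6.61, between the means of A/J risperidone mice (6.59) and A/J controls (6.68). Nos1 had its lowest mean in DBA/2J controls at all 4 of its probe sets, by smaller differences that did not pass. Sst, Npy, Pvalb and Th had group means that lay within the spread of the arrays.

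**Figure D1:**
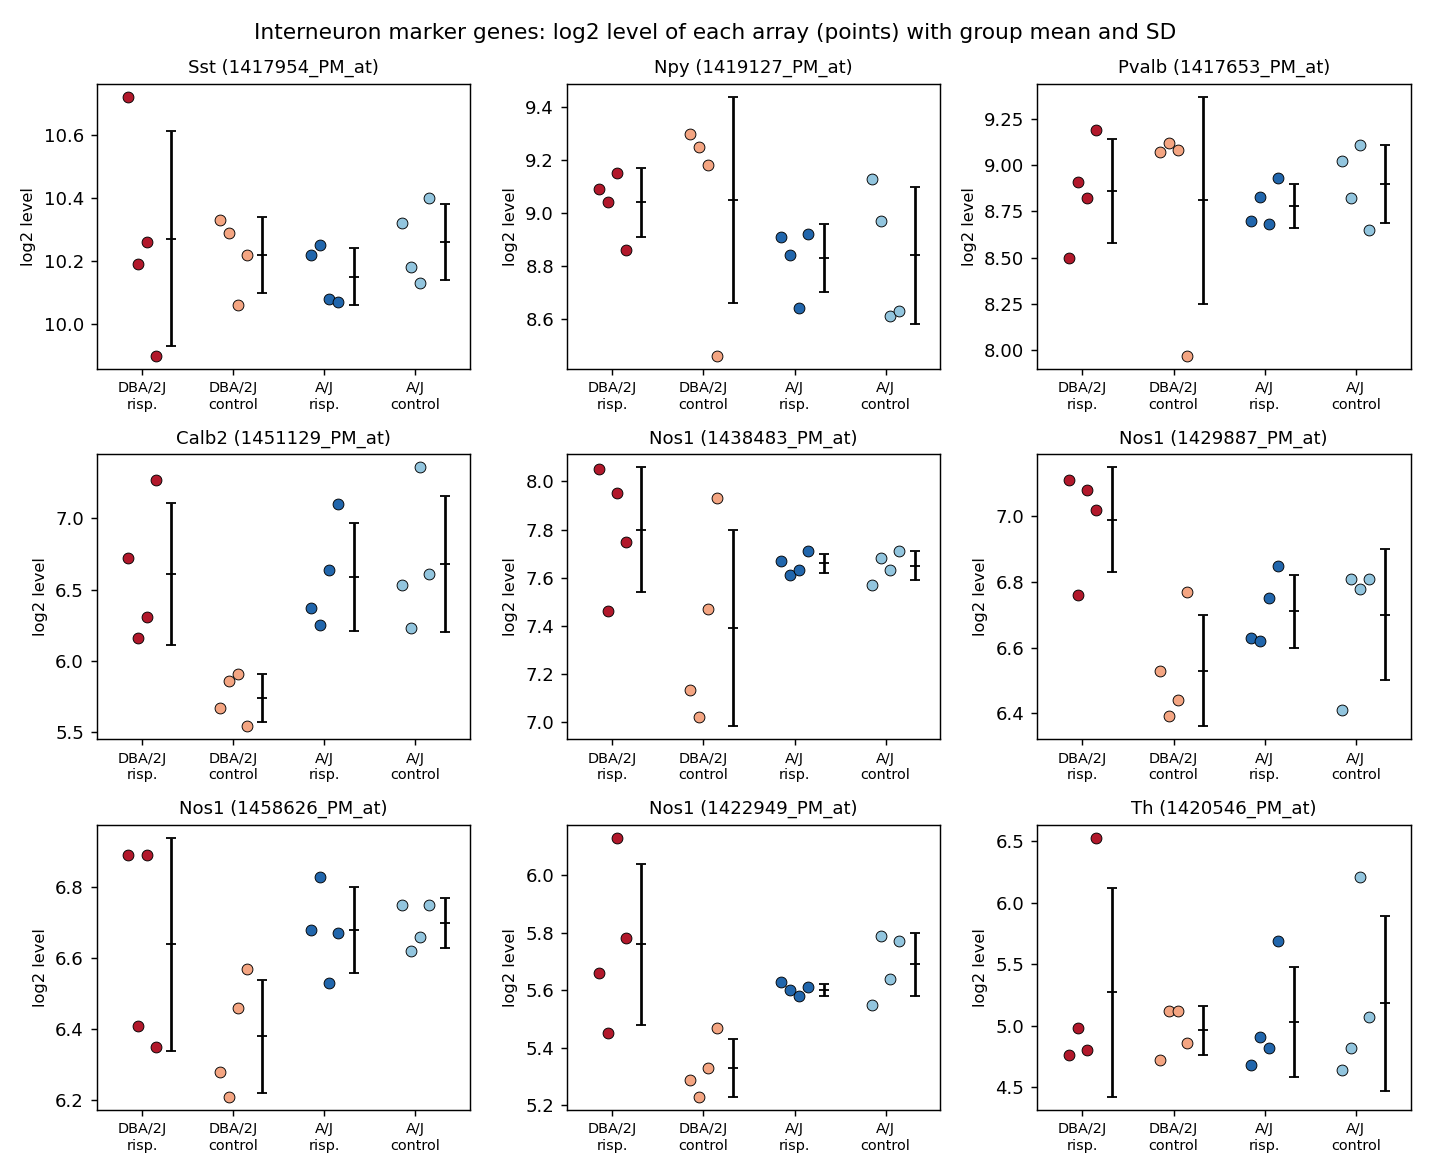
Log2 level (vertical axes, each panel on its own scale) of the 9 probe sets on each of the 16 arrays, with the 4 groups along the horizontal axes; points are arrays in replicate order and the bar beside them is the group mean with its SD. The 4 Calb2 values of DBA/2J control mice, 5.54 to 5.91, lie below all the other 12 arrays, and single arrays stand apart for Th, Npy and Pvalb.

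Neither neuropeptide gene was called in any of the 6 comparisons. Sst, which codes for the inhibitory peptide somatostatin, had levels of 10.72, 10.19, 10.26 and 9.90 in DBA/2J risperidone mice, against 10.33, 10.29, 10.06 and 10.22 in DBA/2J controls. In A/J risperidone mice Sst was at 10.22, 10.25, 10.08 and 10.07, against 10.32, 10.18, 10.13 and 10.40 in A/J controls. The groups overlapped throughout, and DBA/2J risperidone replicates 1 and 4 were the highest and the lowest of all 16 arrays. The means, 10.27 ± 0.34 in DBA/2J risperidone mice, 10.22 ± 0.12 in DBA/2J controls, 10.15 ± 0.09 in A/J risperidone mice and 10.26 ± 0.12 in A/J controls (SD, n = 4 each), differed by no more than the larger SD at any step of their order. The 95% interval of the risperidone difference ran over -0.23 to 0.31 in DBA/2J and -0.37 to 0.17 in A/J.

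Npy, which codes for neuropeptide Y and is made by the same cells as much of the Sst, was at 9.09, 9.04, 9.15 and 8.86 in DBA/2J risperidone mice, against 9.30, 9.25, 9.18 and 8.46 in DBA/2J controls. It was at 8.91, 8.84, 8.64 and 8.92 in A/J risperidone mice, against 9.13, 8.97, 8.61 and 8.63 in A/J controls. DBA/2J control replicate 4 held the lowest value of all, far from the other 3 of its group. Means were 9.04 ± 0.13 in DBA/2J risperidone mice, 9.05 ± 0.39 in DBA/2J controls, 8.83 ± 0.13 in A/J risperidone mice and 8.84 ± 0.26 in A/J controls (SD, n = 4 each). The risperidone difference had an interval of -0.34 to 0.32 in each strain with all arrays. In DBA/2J it was -0.21 ± 0.12 (SE; limma, adjusted p = 0.660) without DBA/2J control replicate 4, and the ranges were then 8.86 to 9.15 with risperidone and 9.18 to 9.30 in controls. DBA/2J control replicate 4 was the only control not above the risperidone range, so leaving it out parts the groups by construction. DBA/2J minus A/J was 0.21 ± 0.16 (SE) among risperidone mice and 0.21 ± 0.16 among control mice, with adjusted p = 0.754 and 0.512 in limma's test over all 45037 probe sets. Without that array the control difference was 0.41 (limma, adjusted p = 0.0691).

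The RefSeq promoter table (build GRCm38.p6) was matched by 6 members: Sst, Npy, Pvalb, Chat, Nos1 and Th. The promoters of Sst and Th are shown because they are those of the 6 that hold the full cAMP response element TGACGTCA, the DNA element through which cAMP signalling, downstream of dopamine receptors, is known to act on both genes. Each line gives the 250 bases before the gene's start, 5′ to 3′ on the gene's strand, with the element in capitals. The Sst stretch is chr16:23890845-23891094 on the minus strand, with the element 48 to 41 bases before the start, and the Th stretch is chr7:142899996-142900245 on the minus strand, with the element 45 to 38 bases before it.
Sst: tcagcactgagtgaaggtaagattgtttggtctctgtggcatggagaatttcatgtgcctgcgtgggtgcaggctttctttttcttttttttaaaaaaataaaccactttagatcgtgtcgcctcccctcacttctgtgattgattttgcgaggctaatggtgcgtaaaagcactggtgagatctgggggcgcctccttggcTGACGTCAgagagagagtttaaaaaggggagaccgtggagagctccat
Th: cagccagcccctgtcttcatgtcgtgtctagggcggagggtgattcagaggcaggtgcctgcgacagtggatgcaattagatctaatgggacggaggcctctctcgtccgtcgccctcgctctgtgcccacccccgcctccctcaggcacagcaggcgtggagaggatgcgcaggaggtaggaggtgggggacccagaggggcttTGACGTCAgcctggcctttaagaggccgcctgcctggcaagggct
The element reads the same on both strands and occurs in 508 of 32851 promoters searched over the same window (1.55%). Neither gene differed with risperidone beyond its spread, and the sequence is that of the reference mouse, not of DBA/2J or A/J.

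Of the calcium-binding proteins, Pvalb codes for parvalbumin, the marker of fast-spiking interneurons. Its levels were 8.50, 8.91, 8.82 and 9.19 in DBA/2J risperidone mice, against 9.07, 9.12, 9.08 and 7.97 in DBA/2J controls. They were 8.70, 8.83, 8.68 and 8.93 in A/J risperidone mice, against 9.02, 8.82, 9.11 and 8.65 in A/J controls. All groups overlapped, and DBA/2J control replicate 4, the array with the lowest Npy, was also the lowest for Pvalb by a wide margin. The means were 8.86 ± 0.28 in DBA/2J risperidone mice, 8.81 ± 0.56 in DBA/2J controls, 8.78 ± 0.12 in A/J risperidone mice and 8.90 ± 0.21 in A/J controls (SD, n = 4 each). The intervals of the risperidone difference were -0.38 to 0.47 in DBA/2J and -0.54 to 0.31 in A/J with all arrays. Without DBA/2J control replicate 4 the sign turned in DBA/2J, to -0.24 ± 0.13 (SE; limma, adjusted p = 0.660), and the DBA/2J ranges were 8.50 to 9.19 with risperidone and 9.07 to 9.12 in controls.

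Calb2 codes for calretinin. Its levels were 6.72, 6.16, 6.31 and 7.27 in DBA/2J risperidone mice, against 5.67, 5.86, 5.91 and 5.54 in DBA/2J control mice. In A/J the values were 6.37, 6.25, 6.64 and 7.10 with risperidone, against 6.53, 6.23, 7.36 and 6.61 in controls. The DBA/2J controls were the 4 lowest arrays of the study and overlapped with no other group, while the other 3 groups overlapped one another fully. Group means were 6.61 ± 0.50 in DBA/2J risperidone mice, 5.74 ± 0.17 in DBA/2J controls, 6.59 ± 0.38 in A/J risperidone mice and 6.68 ± 0.48 in A/J controls (SD, n = 4 each).

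Between control mice, Calb2 in DBA/2J minus A/J was -0.94 ± 0.24 (SE), with a 95% interval of -1.44 to -0.44 and adjusted p = 0.0322 in limma's test. It was the only 1 of the 9 member probe sets called, while 3.87% of all probe sets were called in this comparison of strains. An unadjusted p under 0.05 was found for 3 of the 9, against 17.7% of all: Calb2 and Nos1 at 1422949_PM_at and 1458626_PM_at, which read 1 gene. Among risperidone mice the strains differed by 0.03 ± 0.24 (limma, adjusted p = 0.989), with an interval of -0.47 to 0.52. Within DBA/2J, risperidone minus control was 0.87 ± 0.24, an interval of 0.37 to 1.37, with unadjusted p = 0.00178 and adjusted p = 0.224 in limma's test, so this difference did not pass over all probe sets. In A/J the same difference was -0.09 ± 0.24, and the difference between the strains in the effect was 0.96 ± 0.34 (limma, adjusted p = 0.435), which did not pass either. These comparisons share the DBA/2J control arrays, and the low values of those 4 mice enter both the strain difference and the risperidone difference.

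The Calb2 call depended on single arrays. It was kept in 21 of 30 alternative settings, with differences between -1.09 and -0.71. Leaving out 1 array in turn kept it in 10 of 16 cases, and the 6 cases that lost it each removed 1 of the control arrays: A/J control replicates 1, 3 or 4 (adjusted p = 0.0528, 0.116 and 0.0609 in limma) or DBA/2J control replicates 1, 2 or 4 (0.0698, 0.0538 and 0.0848). The value closest to 0, -0.71, came without A/J control replicate 3. With mean levels of cortex, thalamus and choroid plexus markers as covariates the difference was -0.78 ± 0.21 (limma, adjusted p = 0.189).

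**Figure D2:**
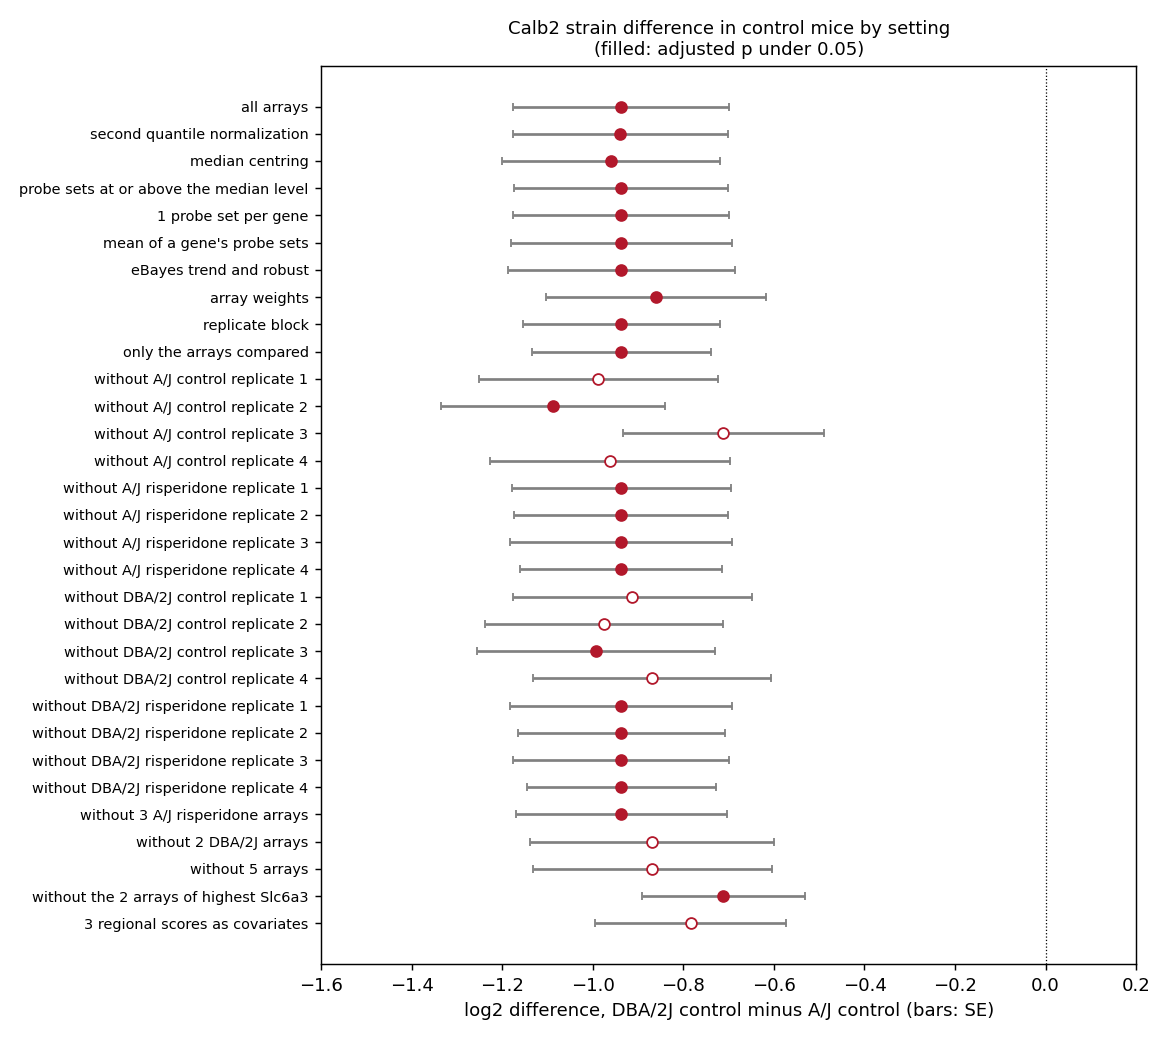
Calb2 difference between DBA/2J and A/J control mice (horizontal axis, log2, bars are SE) with all arrays at the top and for each alternative setting below it; filled points have an adjusted p under 0.05. All points lie between -1.09 and -0.71, and open points include 6 of the 16 settings that leave out 1 array.

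By list median, markers of thalamus, oligodendrocytes, choroid plexus and striatal projection neurons and the catecholamine genes were lower in DBA/2J controls, as Calb2 was. The medians of cortex and pallidum were not. All 8 measured thalamus markers were lower in control mice of DBA/2J than of A/J, with a median difference of -0.43 against -0.0025 over all genes, and 1 of them, the axon guidance gene Ntng1, passed the test. The mean level of the thalamus list was 5.87 to 6.05 in DBA/2J controls and 5.91 to 7.29 in A/J controls. The 9 measured oligodendrocyte markers were also all lower, and 2 passed, with a list level of 7.98 to 8.40 in DBA/2J controls and 8.53 to 9.24 in A/J controls. Over the 16 arrays, with group means removed, Calb2 correlated negatively with the cortex marker level (Pearson r = -0.868, permutation p = 0.00266, adjusted 0.0559 over 42 relations; Spearman rho = -0.832, permutation p = 0.00204, adjusted 0.0428), and r was -0.70 without the 2 arrays farthest from the Calb2 median. With the thalamus level r was 0.767 (permutation p = 0.0111, adjusted 0.0802; rho = 0.641, permutation p = 0.0284, adjusted 0.145) and 0.488 without those arrays. With the oligodendrocyte level r was 0.585 and 0.196 without those arrays. For the remaining lists r was 0.561 (pallidum), 0.369 (projection neurons), -0.316 (neuroblasts) and -0.213 (choroid plexus). None of these further relations passed after adjustment. In the comparison of control strains 2 of 10 striatal projection neuron markers were called lower and 1 of 8 cortex markers was called higher. Of the neuroblast markers 0 of 6 passed, and of the pallidum markers 0 of 3. The median differences were -0.12 for the projection neuron list, 0.095 for cortex, -0.01 for neuroblasts and 0.065 for pallidum. Of the choroid plexus markers 9 of 11 were lower, with a median of -0.23 and 0 called. Of the 9 measured catecholamine genes 6 were lower and 3 higher, with a median of -0.37 and 0 called. Over all genes 3.46% were called. The part of tissue makeup in the Calb2 difference was not tested beyond the covariate fit above.

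Nos1, the neuronal enzyme that makes nitric oxide, was read by 4 probe sets. At 1438483_PM_at, the probe set with the highest mean, the levels were 8.05, 7.46, 7.95 and 7.75 in DBA/2J risperidone mice, against 7.13, 7.02, 7.47 and 7.93 in DBA/2J controls. In A/J they were 7.67, 7.61, 7.63 and 7.71 with risperidone, against 7.57, 7.68, 7.63 and 7.71 in controls. The A/J arrays were nearly level, the DBA/2J arrays were spread, and DBA/2J control replicate 4 lay inside the risperidone range while the other 3 controls were low.

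At 1429887_PM_at the levels were 7.11, 6.76, 7.08 and 7.02 in DBA/2J risperidone mice, against 6.53, 6.39, 6.44 and 6.77 in DBA/2J controls, so that only the lowest treated and the highest control array crossed, by 0.01. The A/J values there were 6.62 to 6.85 with risperidone and 6.41 to 6.81 in controls. At 1422949_PM_at the DBA/2J levels were 5.66, 5.45, 6.13 and 5.78 with risperidone, against 5.29, 5.23, 5.33 and 5.47 in controls, again crossing only between the lowest treated and the highest control array. A/J ranged over 5.58 to 5.63 with risperidone and 5.55 to 5.79 in controls. At 1458626_PM_at the DBA/2J ranges were 6.35 to 6.89 with risperidone and 6.21 to 6.57 in controls, and the A/J ranges were 6.53 to 6.83 with risperidone and 6.62 to 6.75 in controls.

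In DBA/2J, risperidone minus control was 0.42 ± 0.15 at 1438483_PM_at, 0.46 ± 0.11 at 1429887_PM_at, 0.26 ± 0.12 at 1458626_PM_at and 0.43 ± 0.11 at 1422949_PM_at (SE, n = 4 each). The adjusted p values in limma's test were 0.362, 0.177, 0.467 and 0.200, and no probe set of Nos1 was called. In A/J the 4 differences lay between -0.08 and 0.01, with adjusted p of 0.994 or above. The difference between strains in the effect was 0.27 to 0.51 over the 4 probe sets (limma, adjusted p = 0.402 to 0.628) and did not pass. The 4 probe sets read the same gene on the same arrays and are not independent. Their deviations from the group means correlated with r of 0.331 to 0.714 over the 16 arrays.

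Between control mice, DBA/2J also had less Nos1 than A/J at each probe set, with log2 differences of -0.26, -0.17, -0.32 and -0.36 in the same order (limma, adjusted p = 0.392, 0.446, 0.174 and 0.0835). The groups did not overlap at 1458626_PM_at and 1422949_PM_at. With Calb2 this made 3 of the 9 member probe sets without overlap between control strains, against 9.33% of all probe sets. Those of Nos1 read 1 gene on the same arrays, so they do not count as separate members against that share. At 1422949_PM_at the call changed with the setting: it passed with array weights (-0.42, adjusted p = 0.0327) and without DBA/2J risperidone replicate 3 (-0.36, adjusted p = 0.0279). At 1438483_PM_at it passed without DBA/2J control replicate 4 and DBA/2J risperidone replicate 1 together (-0.44, adjusted p = 0.0381). Leaving out 1 array at a time, the difference there was between -0.44 (without DBA/2J control replicate 4; limma, adjusted p = 0.0553) and -0.14 (without DBA/2J control replicate 2; adjusted p = 0.677), and none of these passed.

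**Figure D3:**
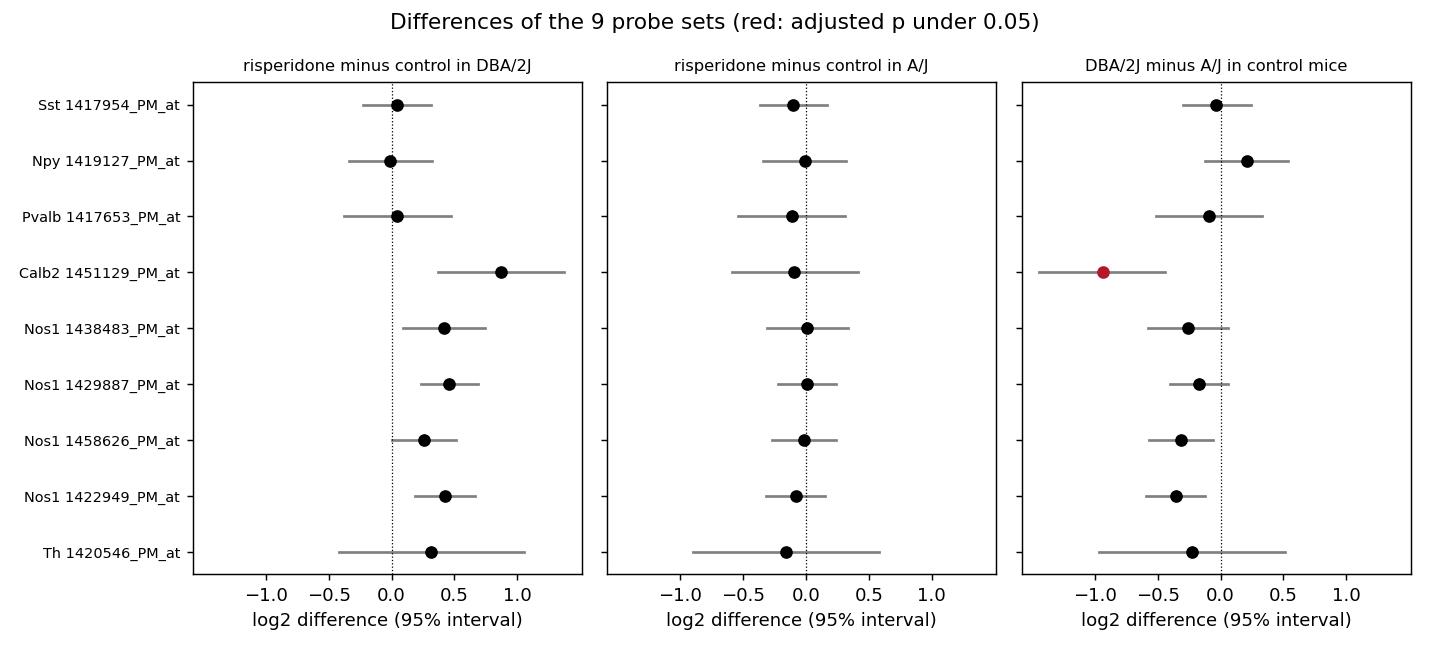
Log2 differences of the 9 probe sets (points) with 95% intervals (lines) for risperidone minus control in DBA/2J, risperidone minus control in A/J, and the strains of control mice (DBA/2J minus A/J). Calb2 in the right panel, at -0.94, is the only point with an adjusted p under 0.05, and the Nos1 points sit right of 0 in the left panel and left of it in the right panel.

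Th codes for tyrosine hydroxylase, the rate-limiting enzyme of dopamine synthesis. Its levels were 4.76, 4.98, 4.80 and 6.53 in DBA/2J risperidone mice, against 4.72, 5.12, 5.12 and 4.86 in DBA/2J controls. In A/J they were 4.68, 4.91, 4.82 and 5.69 with risperidone, against 4.64, 4.82, 6.21 and 5.07 in controls. The groups overlapped, and 3 arrays in 3 different groups stood above the other 13, which lay between 4.64 and 5.12. The means were 5.27 ± 0.85 in DBA/2J risperidone mice, 4.96 ± 0.20 in DBA/2J controls, 5.03 ± 0.45 in A/J risperidone mice and 5.18 ± 0.71 in A/J controls (SD, n = 4 each). The intervals of the risperidone difference, -0.42 to 1.05 in DBA/2J and -0.90 to 0.58 in A/J, were the widest of the 9 probe sets.

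The 3 arrays with the highest Th were also the 3 with the highest Calb2. DBA/2J risperidone replicate 4 had Th at 6.53 and Calb2 at 7.27, A/J risperidone replicate 4 had 5.69 and 7.10, and A/J control replicate 3 had 6.21 and 7.36. Genes of dopamine neurons were high on the same arrays. The dopamine transporter Slc6a3 was at 7.55, 5.61 and 7.25 on them, in the same order, against 4.75 to 5.17 on the other 13 arrays. The decarboxylase Ddc, which makes dopamine from its precursor, was at 6.74, 5.85 and 6.94, against 4.20 to 5.42 elsewhere. En1, a transcription factor of midbrain neurons, was at 5.06 and 4.56 on DBA/2J risperidone replicate 4 and A/J control replicate 3 but at 2.77 on A/J risperidone replicate 4, within the 2.30 to 2.94 of the other arrays. The mean level of all 9 measured catecholamine genes was 6.70, 6.06 and 6.66 on the 3 arrays and 5.65 to 5.90 on the rest, and Nr4a2, also used by cortical neurons, was not high there (8.59, 8.92 and 8.73, against 8.71 to 9.43). Slc17a6, the glutamate transporter of thalamus and midbrain, was 8.24, 7.35 and 8.17, against 6.24 to 7.16. The mean level of the whole thalamus list was 6.62, 6.48 and 7.29, against 5.87 to 6.71, so only A/J control replicate 3 stood above the other 13. The cortex marker level was lowest on DBA/2J risperidone replicate 4 (8.19) and A/J control replicate 3 (8.16). It was 8.37 on A/J risperidone replicate 4, within the 8.33 to 8.52 of the arrays other than these 3.

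**Figure D4:**
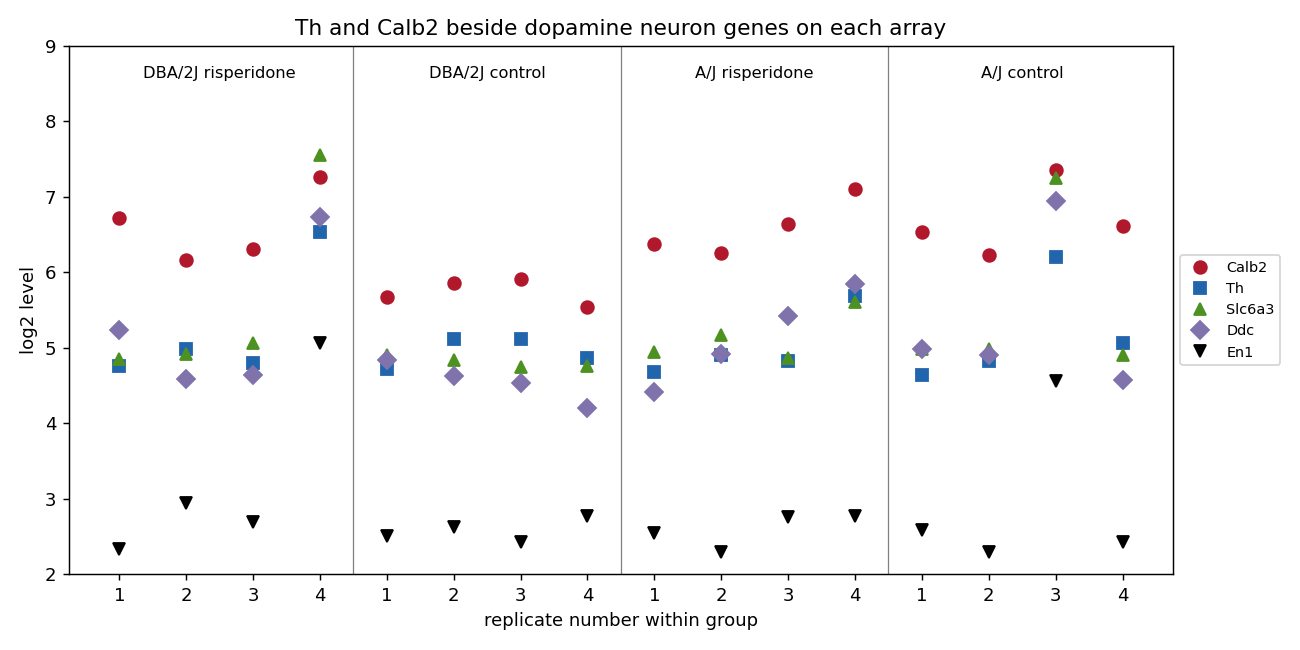
Log2 levels (vertical axis) of Calb2, Th and the dopamine neuron genes Slc6a3, Ddc and En1 on each array (horizontal axis, replicates within the 4 groups). Th, Calb2, Slc6a3 and Ddc each have their highest 3 values on DBA/2J risperidone replicate 4, A/J risperidone replicate 4 and A/J control replicate 3, while En1 is high on DBA/2J risperidone replicate 4 and A/J control replicate 3.

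Without DBA/2J risperidone replicate 4 and A/J control replicate 3, the 2 arrays of highest Slc6a3, Calb2 in control mice differed by -0.71 ± 0.18 between DBA/2J and A/J (limma, adjusted p = 0.0460) and by 0.65 ± 0.18 between risperidone and control in DBA/2J (adjusted p = 0.290). The Th difference for risperidone in DBA/2J was then -0.11 ± 0.19, against 0.31 ± 0.35 with all arrays, neither past the test. Since both arrays are also among the highest for Calb2, leaving them out narrows the Calb2 spread by construction. Whether midbrain or thalamic tissue contributed to these levels was not tested.

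Over all members, risperidone gave no call. In DBA/2J 0 of 9 probe sets passed limma's test, against 0.04% of all probe sets, and 5 of 9 had an unadjusted p under 0.05, against 10.7% of all. These 5 were every Nos1 probe set and Calb2. The Nos1 probe sets read 1 gene on the same arrays, so they do not count as separate members against that share. Of the 9, 1 (Calb2) had groups that did not overlap, against 4.4% of all. In A/J 0 of 9 passed, against 0% of all, 0 had an unadjusted p under 0.05, against 5.51%, and 0 were without overlap, against 4.42%. The mean effect over both strains gave 0 of 9 (0.0266% of all), with 3 at an unadjusted p under 0.05 (6.9% of all), and the difference between strains in the effect gave 0 (0% of all), with 3 (9.19% of all). Both times the 3 were Calb2 and Nos1 at 1422949_PM_at and 1429887_PM_at. Between strains in risperidone mice 0 of 9 passed (0.782% of all), 1 had an unadjusted p under 0.05 (9.43% of all) and 0 were without overlap (7.68% of all).

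The strain-marker result limits the A/J comparison. The 9 differences between risperidone and control in A/J lay between -0.16 and 0.01 with all arrays. Using only A/J risperidone replicate 3 in place of the 4, they lay between -0.36 and 0.05, with 0 called and with that lone array assumed to vary like the other groups. DBA/2J minus A/J in risperidone mice lay between -0.04 and 0.28 with all arrays, and between -0.02 and 0.45 with that array alone, again with 0 called.

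Genes that act with the members were read beside them. Of 8 measured nitric oxide signalling genes, 2 were called higher and 0 called lower in control mice of DBA/2J than of A/J. By sign alone 4 were higher and 4 lower. Over all 17097 genes, each read by 1 probe set, 3.46% were called in that comparison, 0.643% between strains in risperidone mice, 0.0526% for risperidone in DBA/2J, 0% in A/J, 0.0409% for the mean effect and 0% for the difference in effect. Nos1ap, an adaptor that binds neuronal nitric oxide synthase, was 8.39 ± 0.02 in DBA/2J controls and 7.83 ± 0.09 in A/J controls (SD, n = 4), a difference of 0.56 ± 0.09 (SE; limma, adjusted p = 0.000583). Gucy1b1, a subunit of the guanylate cyclase that senses nitric oxide, was 8.22 ± 0.16 in DBA/2J controls and 7.64 ± 0.11 in A/J controls, a difference of 0.57 ± 0.10 (limma, adjusted p = 0.00127). Both ran opposite in sign to the Nos1 differences in the same comparison, which had not passed. The median over the 8 genes was 0.01.

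Among 17 measured genes of other interneuron classes, 2 were called higher and 1 called lower in DBA/2J against A/J controls. By sign alone 11 were higher and 6 lower. The peptide gene Vip was 7.74 ± 0.33 in DBA/2J controls and 7.02 ± 0.13 in A/J controls (SD, n = 4), a difference of 0.73 ± 0.14 (SE; limma, adjusted p = 0.00434). Crhbp, which codes for a protein that binds corticotropin-releasing hormone, was 7.39 ± 0.05 in DBA/2J controls and 6.82 ± 0.15 in A/J controls, a difference of 0.57 ± 0.10 (limma, adjusted p = 0.00202). The peptide gene Cck, which excitatory neurons also make, fell by 0.33 ± 0.09 (limma, adjusted p = 0.0488). Lhx6, the transcription factor of Sst and Pvalb interneurons, differed by 0.07 ± 0.13 and did not pass. None of the 17 passed for risperidone in either strain, and the list median for risperidone in DBA/2J was -0.04, against 0.01 over all genes.

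The cholinergic class was read through partners of Chat. Of 8 measured cholinergic genes, 0 passed in any of the 6 comparisons. Their mean level was 5.05, 4.84 and 4.90 on the 3 arrays of highest Th, in the order above, against 4.50 to 4.83 on the other 13, and these were its 3 highest values. Slc18a3, which loads acetylcholine into vesicles, was 4.94 ± 0.11 in DBA/2J risperidone mice, 4.69 ± 0.17 in DBA/2J controls, 5.12 ± 0.20 in A/J risperidone mice and 4.82 ± 0.29 in A/J controls (SD, n = 4 each). Slc5a7, the choline transporter, was 5.30 ± 0.17 in DBA/2J risperidone mice, 5.32 ± 0.49 in DBA/2J controls, 5.22 ± 0.14 in A/J risperidone mice and 5.18 ± 0.02 in A/J controls. The group means of both genes lay below the array medians. On the 3 arrays of highest Th, in the same order, Slc18a3 was 5.10, 5.27 and 5.09, against 4.48 to 5.27 over all 16 arrays. Slc5a7 (5.32, 5.23 and 5.17) and Lhx8 of the same list (3.74, 3.72 and 3.81) were not highest there. These 2 genes were highest on DBA/2J control replicate 4, at 6.05 and 4.39, so the list mean does not hold for each gene. The receptors for the member peptides (10 measured), muscarinic and nicotinic receptors (8), GABA synthesis and transport genes (4) and peptide processing genes (6) likewise gave 0 calls in all 6 comparisons. Npy2r, a neuropeptide Y receptor, had the smallest p of the peptide receptors between control strains, with a difference of -0.67 ± 0.24 (limma, adjusted p = 0.149).

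Across mice of the same group the members did not vary as a block. Of the 15 pairs of members, 0 passed a permutation test of the correlation of deviations from group means over 16 arrays after adjustment over the pairs, while 3 had an unadjusted p under 0.05 for Pearson's r. Calb2 and Th were the closest pair (r = 0.865, permutation p = 0.0054, adjusted 0.081; rho = 0.673, permutation p = 0.0139, adjusted 0.201), and r was 0.697 without A/J control replicate 3 and DBA/2J risperidone replicate 4. Sst and Npy, which share a class of cells, had r = 0.217 (permutation p = 0.315, adjusted 0.441; rho = 0.131, permutation p = 0.648, adjusted 0.81). Pvalb and Nos1 had the most negative correlation, r = -0.776 (permutation p = 0.0334, adjusted 0.178; rho = -0.60, permutation p = 0.0382, adjusted 0.201), and r was -0.426 without DBA/2J control replicate 4 and DBA/2J risperidone replicate 1.

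The genes whose deviations were most like those of each member were ranked among 9946 genes with a mean at or above the median level, over the 16 arrays. For Calb2 they were Baiap3 (r = 0.968, rho = 0.935), Zcchc12 (r = 0.942, rho = 0.859) and Unc13c (r = 0.925, rho = 0.917). For Th, ranked among 9947, they were Gad2, an enzyme of GABA synthesis (r = 0.939, rho = 0.869), Sparc (r = 0.926, rho = 0.753) and A930009L07Rik (r = 0.924, rho = 0.764). The first gene of each set was highest on the same arrays: Baiap3 was at 7.70, 6.99 and 7.11 on the 3 arrays of highest Calb2 and Th, against 5.24 to 6.82 elsewhere, and Gad2 at 9.30, 9.13 and 9.28, against 8.64 to 8.99. Both genes were picked for their likeness to Calb2 or Th on these arrays, so their high levels there follow from the choice. Without A/J control replicate 3 and DBA/2J risperidone replicate 4, r was 0.934 for Baiap3 and 0.852 for Gad2. The closest genes to the other members were Cebpb for Sst (r = 0.935), Pclo for Npy (r = 0.969), Tmem60 for Pvalb (r = 0.958) and Id4 for Nos1 (r = 0.906).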

How the data were processed

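The deposited table held log2 expression values per probe set with 2 decimals, which the authors made with RMA, per the submitters' processing notes; the version and other upstream steps are not given in the sources used here. The table held 45141 probe sets; all but the 104 array controls, that is 45037, entered the tests, whatever their level. Gene names came from the platform annotation: 28898 probe sets name 1 gene, 551 several and 15588 none, and 28689 matched GRCm38.p6 by Entrez ID with 0 symbols changed. Groups came from the labels. Of the DBA/2J risperidone arrays, replicates 2 to 4 carry the same description label but hold different values.

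The 16 arrays were fitted together, with 1 mean for each of 4 groups, by lmFit and eBayes of limma 3.58.1 (two-sided) in R 4.3.3, with Benjamini-Hochberg adjustment over all probe sets in each of 6 comparisons and a threshold of 0.05. SE is that of the fit and SD that of 4 arrays. The number of arrays limits the precision. Correlations used deviations from group means, permuted within groups with 100000 resamples (Python 3.11.15, scipy 1.17.1); figures were drawn with matplotlib 3.10.9. The probe set of a gene with the highest mean stands for the gene in lists and correlations. The DBA/2J share is the median position of an array, on the unlogged scale, between the control means of the strains over 46 to 49 marker probe sets that differed by at least 1.5 (log2), reached a level of 7 and differed by over 3 times the larger SD. List levels are means over measured members. The fit was tested on simulated data.

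The members, the 15 other gene lists and the tests were chosen with earlier results of these data known. Named genes are all member probe sets, up to 3 genes of a list with the smallest p, a set of genes with known roles (among them Slc6a3, Ddc, Slc18a3, Slc5a7, Lhx6, Vip, Cck, Slc17a7 and Drd2) and the 3 genes most like each member. En1, Tbr1, Nr4a2 and Slc17a6 were named after their values were seen. The alternatives were median centring, a second quantile normalization, only probe sets at or above the median level, 1 probe set or the mean of probe sets per gene, array weights, trend and robust options of eBayes, the replicate number as a block, only the arrays compared, leaving out each array or sets of 3, 2 or 5 in doubt, and marker levels or strain share as covariates. Leaving out the 2 arrays of highest Slc6a3 was added after seeing the data.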

Additional observations from a re-analysis of the deposited data

Results flagged for a closer look

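Among 36 sets of 4 arrays (9 probe sets in 4 groups), 4 had 1 array far from the other 3 by Dixon's criterion, which chance gives in about 1 of 20 sets, or 1.8 of 36. Npy was at 8.46 on DBA/2J control replicate 4, against 9.18 to 9.30 on the other 3 arrays of the group. Pvalb was at 7.97 on the same array, against 9.07 to 9.12. Nos1 at 1429887_PM_at was at 6.41 on A/J control replicate 1, against 6.78 to 6.81. Th was at 6.53 on DBA/2J risperidone replicate 4, against 4.76 to 4.98, on an array that also had the highest Slc6a3 level of the study, 7.55.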

How the results depend on the processing

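No difference at least as large as its SE changed sign in any setting (smaller ones did, among them that of Pvalb for risperidone in DBA/2J), and the count of member probe sets called stayed at 0 in the 5 comparisons other than that of the control strains. For DBA/2J minus A/J in control mice, where 1 of 9 was called, leaving out 1 array at a time gave 0 to 2 calls. Array weights gave 2, while leaving out 5 arrays and 3 regional scores as covariates each gave 0. Without DBA/2J control replicate 4 and DBA/2J risperidone replicate 1 together the count was again 1, but of Nos1 at 1438483_PM_at, with Calb2 at -0.87 (limma, adjusted p = 0.0962); without 5 arrays Calb2 had the same difference (adjusted p = 0.120). Taking the replicate number as a block, Calb2 was at -0.94 ± 0.22 (limma, adjusted p = 0.0241) and the count of calls was the same in every comparison. The numbers were not used as pairs in the main fit. Of 24 correlations between same-numbered arrays 6 exceeded 0.1, with a range of -0.142 to 0.189. For 9 of 16 arrays the mean correlation with arrays of other groups was highest for their own number out of 4. Whether the numbers carry shared structure was not tested. Beyond the number of arrays, precision is limited for Th, whose levels lay near or below the array median on most arrays. The settings without 3 or 5 arrays leave a single A/J risperidone array.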

Other observations

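In risperidone mice, 1 of the 8 measured nitric oxide signalling genes was called between DBA/2J and A/J: Gucy1b1 averaged 8.18 ± 0.12 in DBA/2J and 7.75 ± 0.12 in A/J (SD, n = 4 each), a difference of 0.43 ± 0.10 (SE; limma, adjusted p = 0.0406). Of the 17 genes of other interneuron classes 0 were called there by limma. Sst deviations from the group means ran opposite to the mean level of the 3 pallidum markers over the 16 arrays (Pearson r = -0.875, permutation p = 0.00413, adjusted 0.0578 over 42 relations; Spearman rho = -0.837, permutation p = 0.00032, adjusted 0.0134), and r was -0.688 without DBA/2J risperidone replicates 1 and 4. That list level leans on Kcng4, whose group means lay below the array medians. In DBA/2J risperidone mice the SD was 0.76 for Kcng4 (3.87 to 5.69), 0.18 for Npas1 and 0.02 for Etv1. The correlation of Pvalb with the oligodendrocyte marker level did not pass (r = 0.713, permutation p = 0.00201, adjusted 0.0559; rho = 0.75, permutation p = 0.00407, adjusted 0.057), and r was 0.67 without DBA/2J control replicate 4 and DBA/2J risperidone replicate 1.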
